A study of Homo sapiens with 2 samples.

Results

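Members of 1 pathway (9 of the 62702 rows of the deposited table) that serve antigen presentation by MHC class I molecules were followed in K562 cells. They were taken by symbol: the heavy chain genes HLA-B, HLA-C and HLA-E, the light chain gene B2M, the peptide transporter genes TAP1 and TAP2, the immunoproteasome genes PSMB8 and PSMB9, and the regulator gene NLRC5. K562 is an established human line from a chronic myeloid leukemia, with features of red cell precursors. Poly(A)-selected RNA was sequenced from 1 library of cells with a guide RNA against SMC1A, whose product is a subunit of cohesin, the ring that folds chromatin into loops, and from 1 library of cells with a control guide. The cells of both libraries expressed dCas9-KRAB, a Cas9 without cutting activity joined to a repressor domain, carried the genotype label E50_dCas9-KRAB, which the labels do not explain, and were called WT in their titles. Guides came by lentivirus with a blue fluorescent protein, puromycin selection at 1 µg/ml lasted over days 2 to 6, and the brightest blue cells were sorted at harvest. There is 1 library per guide, hence neither a replicate nor a p-value. Every difference below is between these libraries, and each 95% interval covers counting error only.

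MHC class I molecules carry peptides from proteins made inside the cell to its surface, where cytotoxic T cells read them. Proteasomes cut the peptides, TAP1 and TAP2 pump them into the endoplasmic reticulum, and there a heavy chain and beta-2 microglobulin fold around them with the help of tapasin, calreticulin and the disulfide isomerase PDIA3. Interferon gamma raises most of these genes, in part through NLRC5, which joins a protein complex on class I promoters. K562 cells are known for very little class I on their surface, and are for that reason a standard target of natural killer cells, which attack cells that lack it.

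The SMC1A library held 16864207 counts in 20786 detected genes and the control library 18349209 counts in 19468. SMC1A itself (ENSG00000072501.19) had 288 counts with its guide and 8077 with the control guide, so that 3.55% of its level was left. All 10 erythroid and K562 markers examined, GATA1 and TAL1 among them, were detected (median log2 ratio -0.44). At least 2-fold lower in the SMC1A library were 4 of the 10, against 2.32% of all genes with 100 counts. Of 10 markers each of other cells, 9 myeloid, 6 lymphoid and 9 fibroblast or epithelial ones were detected. The myeloid markers summed to 89.4 CPM (counts-per-million units, with library sizes scaled by TMM factors) with the SMC1A guide and 62.8 CPM with the control guide, where CD14 had 1 count with the SMC1A guide and 3 with the control guide and S100A8 had 0 in both, and all 5 with 20 counts had ratios above 0 (median 0.45). Lymphoid markers summed to 28.8 CPM with the SMC1A guide and 19.3 CPM with the control guide, with CD2, CD4, CD8A and MS4A1 at 0 in both libraries. Of the 5 lymphoid markers with 20 counts, 4 had ratios above 0 (median 0.99, highest NKG7 at 2.87, 21 counts with the SMC1A guide and 2 with the control guide). Ratios above 0 were found in 62.7% of all genes with 20 to 99 counts and 56.9% with 100 to 999. Fibroblast and epithelial markers summed to 1348 CPM with the SMC1A guide and 1095 CPM with the control guide, most of it from KRT8, KRT18 and FN1. LUM had 0 counts in both, and FN1 had 4514 counts with the SMC1A guide and 456 with the control guide. In CPM, FN1 stood at 256 with the SMC1A guide and 26.0 with the control guide. Of the 7 fibroblast and epithelial markers with 20 counts, 4 had ratios above 0 (median 0.29). All 7 had 100 counts. At least 2-fold higher were 3 of them, against 5.11% of all genes with 100 counts, and 0 were lower, against 2.32%. These 3 were COL3A1 (5.68, 154 counts with the SMC1A guide and 2 with the control guide), FN1 (3.30) and COL1A1 (1.84). KRT18 (-0.25), EPCAM (-0.57) and COL1A2 (-0.73) had ratios below 0. All 3 marker sums were higher with the SMC1A guide. Whether these counts came from K562 cells or from other cells, and their part in the class I values, was not tested. In bulk RNA, more cells that express a gene and more of its RNA per cell cannot be told apart.

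B2M was the most abundant class I gene with either guide, and TAP1, PSMB8, PSMB9 and NLRC5 were nearly silent. The summed counts of the 9 genes were 6131 with the SMC1A guide and 4349 with the control guide, of which B2M gave 84.0% with the SMC1A guide (exact interval 83.1 to 84.9) and 88.7% with the control guide (87.7 to 89.6). All 9 genes were detected in at least 1 library. Summed over both libraries, 5 reached 20 counts, and 4 (HLA-C, HLA-E, B2M and TAP2) reached the 100 counts required for counting differences. Of these 4, 1 gene, TAP2, was at least 2-fold higher with the SMC1A guide, against 5.11% of the 11321 genes with 100 counts, and 0 were at least 2-fold lower, against 2.32%. With a limit of 1.5-fold, 2 of the 4 were higher (TAP2 and HLA-E), against 12.2% of genes, and 0 were lower, against 9.06%. From 20 counts, 2 of 5 were at least 2-fold higher (TAP2 and HLA-B), against 9.55% of genes, and 0 were lower, against 3.63%. From 500 counts, it was 1 of 3, against 2.36%, with 0 lower, against 1.66%. With no filter, 5 of 9 were higher, against 16.9% of all 22456 detected genes, and 0 were lower, against 12.1%. The 5 genes with 20 counts had a median log2 ratio of 0.67, beside -0.01 for all 14257 genes with 20 counts.

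**Figure D1:**
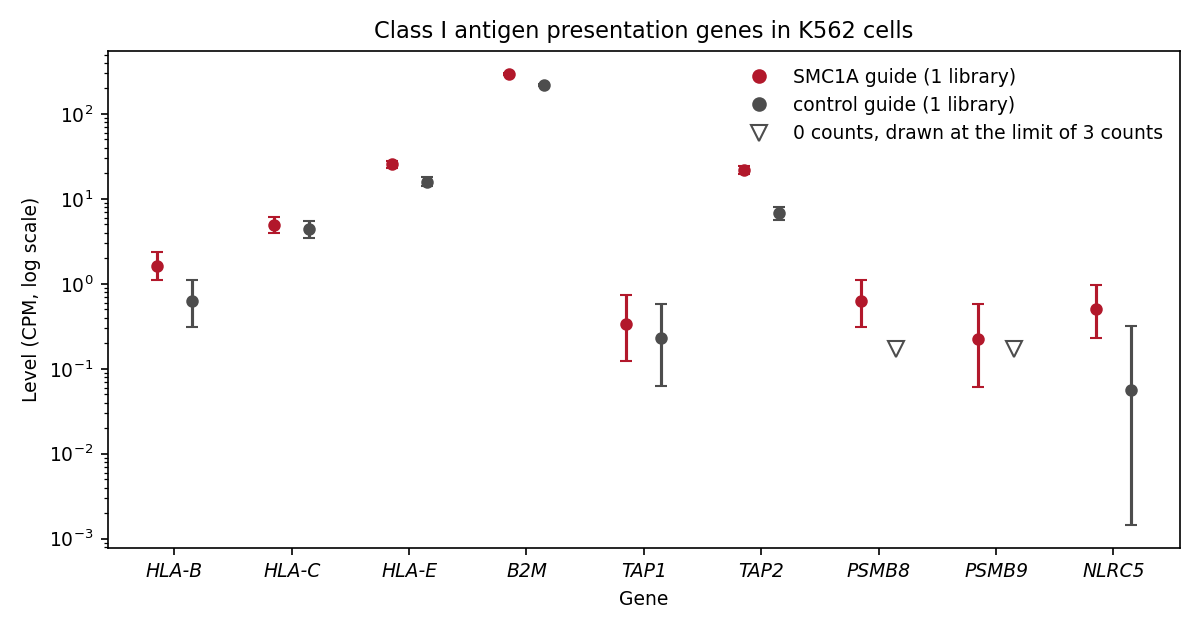
Level of each class I gene in CPM (log axis) with the SMC1A guide (red, left) and the control guide (grey, right). Points are single libraries, bars are exact 95% counting intervals, and open triangles mark 0 counts, drawn at the limit of 3 counts (0.171 CPM with the control guide). B2M stands at 292 CPM with the SMC1A guide and 219.9 CPM with the control guide, while TAP1, PSMB8, PSMB9 and NLRC5 all lie below 1 CPM.

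Each of the 9 ratios was above 0. The counting interval lay above 0 for 6 genes (HLA-B, HLA-E, B2M, TAP2, PSMB8 and NLRC5) and included 0 for the other 3 (HLA-C, TAP1 and PSMB9). Such an interval was found for 18.4% of all genes with 5 to 19 summed counts (PSMB8 and NLRC5, but not TAP1), 29.5% with 20 to 99 (HLA-B), 34.2% with 100 to 999 (HLA-E and TAP2, but not HLA-C) and 25.8% with at least 1000 (B2M). A ratio above 0 was common among scarce genes. It was found in 58.6% of genes with 5 to 19 summed counts, 62.7% with 20 to 99, 56.9% with 100 to 999 and 37.0% with at least 1000. The medians of these bins were 0.41, 0.31, 0.09 and -0.12. Ratios of at least 2-fold were likewise commoner among scarce genes. They were found in 36.7% of genes with 5 to 19 counts and 26.6% with 20 to 99, against 9.42% with 100 to 999 and 1.80% with at least 1000. The low counts of TAP1, PSMB8, NLRC5 and HLA-B are read against these shares, and PSMB9, with 4 counts, lies below the lowest bin.

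**Figure D2:**
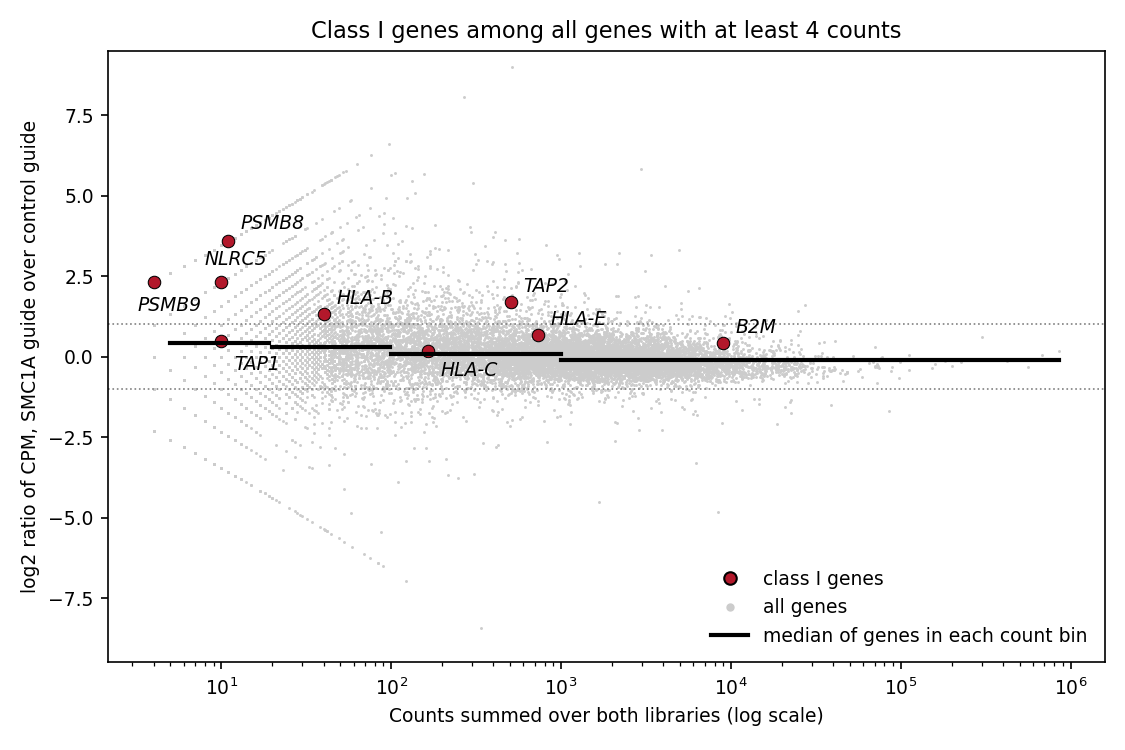
Log2 ratio of CPM (SMC1A guide over control guide) against the counts summed over both libraries (log axis), for the class I genes (red) and all genes with at least 4 counts (light grey). Black lines give the median of all genes in each count bin, from 0.41 for 5 to 19 counts to -0.12 for at least 1000, and dotted lines mark 2-fold. TAP2 and B2M stand above most genes of like counts, while TAP1 and HLA-C lie close to the line of their bin.

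Letters of known control elements were found in several promoters of these genes. RefSeq (GRCh38.p14) gave 9 windows, each from 250 bases before to 50 bases after a transcript start, for 7 of the 9 genes, TAP1 and PSMB8 having more than one. Both strands were searched for letters of known elements. CCAAT, bound by NF-Y at the Y box, was in the windows of 5 genes, and TGACG, the core of the X2 box bound by CREB and ATF factors, in those of 6. GGGATTC, part of the kappa B site of class I genes, was in 2. The core of the interferon-stimulated response element (ISRE), taken as GAAA repeated after any 2 bases, was in 4. The gamma-activated site (GAS), taken as TTC and GAA with any 3 bases between, was in 2 (TAP1 and PSMB8). The E-box CACGTG, bound by USF and MYC factors, was in 0. Counted by window, the matches were in 5, 6, 2, 4, 2 and 0 of the 9 windows, in the order given. Of all 35116 RefSeq windows of this length, 34.6% hold the Y box letters, 24.6% the X2 letters and 3.33% the kappa B letters. The ISRE core is in 3.57%, the GAS letters in 7.66% and the E-box in 7.26%. A match of letters describes the sequence and shows no bound factor. Fixed letters also miss variant forms of an element. The lack of an ISRE match in HLA-B and HLA-C therefore does not show that they lack the element.

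The promoters printed hold letters of several of the elements within 200 bases of the start: kappa B, X2 and Y letters in HLA-B and HLA-C, an ISRE core with X2 and Y letters in B2M, an ISRE core with X2 letters in TAP2 and an ISRE core in TAP1. Each sequence is the 200 bases before the transcript start, 5′ to 3′ on the gene's own strand, with the matched letters in capitals (kappa B, X2, Y and ISRE letters, on either strand).
HLA-B (chr6:31357180-31357379, minus strand): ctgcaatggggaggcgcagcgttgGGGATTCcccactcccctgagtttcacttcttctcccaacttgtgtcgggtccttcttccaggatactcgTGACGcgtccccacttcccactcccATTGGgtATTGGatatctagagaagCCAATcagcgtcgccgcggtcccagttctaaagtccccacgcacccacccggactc
HLA-C (chr6:31272093-31272292, minus strand): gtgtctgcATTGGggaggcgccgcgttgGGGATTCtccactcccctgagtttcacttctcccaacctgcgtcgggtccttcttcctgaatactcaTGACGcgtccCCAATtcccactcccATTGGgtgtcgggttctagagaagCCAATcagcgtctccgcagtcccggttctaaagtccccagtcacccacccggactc
B2M (chr15:44711317-44711516, plus strand): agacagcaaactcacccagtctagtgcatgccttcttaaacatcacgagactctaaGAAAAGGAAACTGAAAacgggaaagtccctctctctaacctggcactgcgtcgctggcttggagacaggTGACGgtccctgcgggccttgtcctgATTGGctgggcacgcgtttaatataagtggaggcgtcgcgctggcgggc
TAP2 (chr6:32838740-32838939, minus strand): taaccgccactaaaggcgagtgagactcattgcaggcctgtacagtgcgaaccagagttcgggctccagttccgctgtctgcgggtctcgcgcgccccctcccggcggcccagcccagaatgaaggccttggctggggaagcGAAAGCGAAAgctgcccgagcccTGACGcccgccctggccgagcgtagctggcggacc
TAP1 (chr6:32853705-32853904, minus strand): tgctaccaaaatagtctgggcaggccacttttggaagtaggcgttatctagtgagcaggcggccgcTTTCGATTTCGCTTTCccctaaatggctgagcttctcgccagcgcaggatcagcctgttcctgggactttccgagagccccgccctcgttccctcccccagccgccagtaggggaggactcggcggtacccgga
The HLA-B and HLA-C stretches were alike in 87.7% of 204 aligned positions. In both, the kappa B letters (176 and 172 bases before the start) precede the X2 letters (106 and 105 bases). In both, 1 of several CCAAT matches lies 56 bases before the start. HLA-C also has a CCAAT match on the other strand ahead of the kappa B letters, at 192 bases. In B2M, the ISRE core matches at 144 and 138 bases before the start, so that the matches overlap, the X2 letters stand at 75, and the Y letters on the other strand at 49. TAP2 has an ISRE core at 58 bases and the X2 letters at 35, and TAP1 has overlapping ISRE matches on its other strand at 134 and 128. The TAP1 window lies beside that of PSMB9, whose transcript starts 488 bases away on the other strand, and their windows overlap and hold the same CCAAT.

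Among the heavy chain genes, HLA-E was the most abundant of the 3 per length of exon in both libraries. HLA-E (ENSG00000204592.9, chromosome 6, 30489467 to 30494205, GRCh38), a non-classical heavy chain that binds leader peptides of other class I molecules and is read by the NKG2A receptor of natural killer cells, had 448 counts (25.4 CPM) with the SMC1A guide, against 280 counts (16.0 CPM) with the control guide. The levels lay apart by more than counting error. HLA-E was 1.59-fold higher with the SMC1A guide (interval 1.37 to 1.85, log2 ratio 0.67), and 82.2% of the 4926 genes with 100 to 999 counts had a lower ratio.

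The classical heavy chain genes, which present peptides to T cells, were scarcer. HLA-C (ENSG00000204525.18, 31268749 to 31272130) had 87 counts (4.93 CPM) with the SMC1A guide, against 77 counts (4.39 CPM) with the control guide. No difference was detectable at this depth (1.12-fold, interval 0.818 to 1.55, log2 ratio 0.17), and the sign of the HLA-C ratio turned once a trend in expression level was taken out (-0.05). HLA-B (ENSG00000234745.14, 31269491 to 31357188) had 29 counts (1.64 CPM) with the SMC1A guide, against 11 counts (0.627 CPM) with the control guide. Its ratio was 2.62-fold, with a wide interval (1.27 to 5.82), and 79.6% of the 2936 genes with 20 to 99 counts had a lower one.

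Class I heavy chain genes are near copies of one another and differ between people, so the division of reads among them, and their match to the alleles of K562 cells, is uncertain. HLA-B and HLA-C share 35 exon bases on the same strand in the annotation. Within a library, which needs no scaling between libraries, there were 5.15 HLA-E counts per HLA-C count with the SMC1A guide and 3.64 with the control guide, a difference within counting error (interval of the fold 0.991 to 2.02). There were 0.333 HLA-B counts per HLA-C count with the SMC1A guide and 0.143 with the control guide (2.33-fold, interval 1.04 to 5.52). HLA-F had 2 counts with the SMC1A guide and 0 with the control guide, and HLA-G had 0 in both.

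B2M, the light chain shared by all heavy chains (ENSG00000166710.23, chromosome 15, 44711487 to 44718877), had 5151 counts (292 CPM) with the SMC1A guide, against 3858 counts (219.9 CPM) with the control guide. It was 1.33-fold higher (interval 1.27 to 1.39, log2 ratio 0.41), short of 1.5-fold. Its ratio exceeded that of 89.6% of the 6395 genes counted 1000 times or more, of which 5.94% were at least 1.5-fold higher. Relative to B2M, HLA-E was higher in the SMC1A library: there were 87.0 HLA-E counts per 1000 B2M counts with the SMC1A guide and 72.6 with the control guide (1.20-fold, interval 1.02 to 1.40). The proportion of HLA-C to B2M was 0.846-fold that of the control library, within counting error (interval 0.614 to 1.17). That of HLA-B to B2M was 5.63 per 1000 with the SMC1A guide and 2.85 per 1000 with the control guide (1.97-fold, interval 0.956 to 4.39).

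TAP2 had the highest ratio of the 4 genes with 100 counts. TAP2 (ENSG00000204267.19, chromosome 6, 32821833 to 32838780), which with TAP1 forms the transporter that brings peptides to class I molecules, had 386 counts (21.9 CPM) with the SMC1A guide, against 118 counts (6.73 CPM) with the control guide. It was 3.25-fold higher (interval 2.64 to 4.03, log2 ratio 1.69), and 96.6% of the genes with 100 to 999 counts had a lower ratio. Its partner TAP1 (ENSG00000168394.13, 32845209 to 32853978) had 6 counts with the SMC1A guide and 4 with the control guide, too few to show a difference (1.49-fold, interval 0.354 to 7.19). There were thus 15.5 TAP1 counts per 1000 TAP2 counts with the SMC1A guide and 33.9 with the control guide, a difference within counting error (0.459-fold, interval 0.107 to 2.25).

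The size of the TAP2 difference depends on how reads were divided. A same-strand gene without a symbol, ENSG00000250264 (32813767 to 32838822), reaches from the TAP2 start past TAP2 and shares 2064 of its 2705 exon bases with it (76.3%). It had 0 counts with the SMC1A guide and 42 with the control guide. Summed with it, TAP2 had 386 counts with the SMC1A guide and 160 with the control guide, a 2.40-fold difference (interval 1.99 to 2.90, log2 ratio 1.26). This sum was formed after the values were seen. HLA-DOB, the next gene with 20 counts, had 16 counts with the SMC1A guide and 10 with the control guide.

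**Figure D3:**
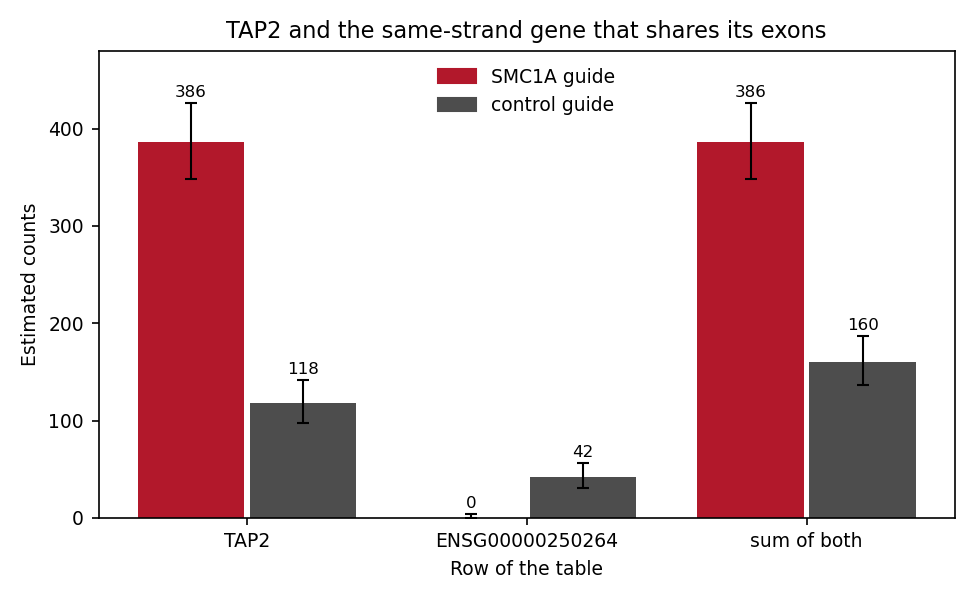
Estimated counts, not scaled between libraries, of TAP2, of ENSG00000250264, which shares most of its exon bases with TAP2, and of their sum, with the SMC1A guide (red, left) and the control guide (grey, right). Bars start at 0 and lines are exact 95% counting intervals. The SMC1A library holds 0 counts for ENSG00000250264 and the control library 42, while the sums are 386 with the SMC1A guide and 160 with the control guide.

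The immunoproteasome subunits PSMB8 and PSMB9, which replace the standard catalytic subunits PSMB5 and PSMB6 in cells exposed to interferon gamma, were listed at 0 counts with the control guide. PSMB8 (ENSG00000204264.12, 32840717 to 32844703) had 11 counts (0.624 CPM) with the SMC1A guide, against 0 with the control guide, where 3 counts would be 0.171 CPM. Against 3 counts in the control library the PSMB8 level was at least 3.65-fold higher, with the 11 counts taken as exact. With counting error in both libraries, the interval of its log2 ratio began at 1.32. Of the genes with 5 to 19 counts, 97.0% had a lower ratio, but PSMB8 entered this bin only through its SMC1A library counts. With 0 control counts, its rank follows from these 11 counts and adds no support. PSMB9 (ENSG00000240065.8, 32844136 to 32859585) had 4 counts with the SMC1A guide and 0 with the control guide, and the interval of its log2 ratio reached down to -0.61, so that no difference was detectable. Among genes with 5 to 19 counts, 184 had 0 in the SMC1A library and 494 had 0 in the control library. PSMB8 and PSMB9 lie on opposite strands and share 139 annotated exon bases, and PSMB8-AS1, which overlaps both and TAP1, had 0 counts in both libraries. Whether reads were counted by strand is not given in the sources used here.

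Both stayed far below the standard subunits. There were 6.64 PSMB8 counts per 1000 PSMB5 counts with the SMC1A guide and 0 with the control guide, where 3 counts would give 1.45. For PSMB9 and PSMB6 these were 2.88 per 1000 with the SMC1A guide and 0 with the control guide, where 3 counts would give 2.03. The third immunoproteasome subunit gene, PSMB10, was not scarce, with 192 counts with the SMC1A guide and 234 with the control guide (log2 ratio -0.29, interval -0.58 to -0.01). Its proportion to PSMB7, the subunit it replaces, was 56.3 per 1000 with the SMC1A guide and 57.6 per 1000 with the control guide (0.977-fold, interval 0.799 to 1.19). The genes of the proteasome activator that interferon gamma raises, PSME1 and PSME2, had log2 ratios of 0.17 (interval -0.10 to 0.44) and -0.10 (-0.25 to 0.06, or 0.03 when libraries were scaled by their totals). Another list held 17 genes of the standard proteasome and its assembly and the activator genes PSME3 and PSME4 among them, all with at least 100 counts. Of these, 0 were 2-fold higher or lower, against 5.11% and 2.32% of genes with 100 counts. Their median was -0.20, or -0.07 by library totals, and their range -0.75 (PSME3) to -0.10.

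NLRC5 (ENSG00000140853.17, chromosome 16, 56989485 to 57083531), the transactivator of class I genes, had 9 counts (0.510 CPM) with the SMC1A guide, against 1 count (0.0570 CPM) with the control guide. The ratio was 8.95-fold, with an interval of 1.24 to 392 that leaves its size unknown. Among genes with 5 to 19 counts, 82.0% had a lower ratio. NLRC5 entered this bin through its 9 counts with the SMC1A guide, so its rank adds no support either. There were 15.8 NLRC5 counts per 1000 counts of RFX5, which encodes the DNA-bound partner of NLRC5, with the SMC1A guide and 2.09 with the control guide, where 3 counts would give 6.28.

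Per kilobase of annotated exon, B2M and HLA-E stood highest in both libraries. With the SMC1A guide B2M stood at 48.0 CPM per kb (interval 46.7 to 49.4), HLA-E at 8.54 (7.77 to 9.37), TAP2 at 3.43 (3.09 to 3.78) and HLA-C at 1.97 (1.58 to 2.43). HLA-B followed at 0.539 (0.361 to 0.774) and PSMB8 at 0.208 (0.104 to 0.372), with overlapping intervals, and PSMB9 (0.0738), TAP1 (0.0708) and NLRC5 (0.0412) could not be ordered. With the control guide the order was B2M at 36.2 (35.0 to 37.3), HLA-E at 5.36 (4.75 to 6.03), HLA-C at 1.75 (1.38 to 2.19), TAP2 at 1.05 (0.871 to 1.26) and HLA-B at 0.205 (0.103 to 0.368). TAP1 (0.0474) and NLRC5 (0.00460) came next, and PSMB8 and PSMB9 were at 0. TAP2 stood above HLA-C with the SMC1A guide and below it with the control guide. The same order was found in each library with the median length of coding transcripts in place of merged exons, with TAP2 at 3.86 and HLA-C at 3.21 CPM per kb with the SMC1A guide, and TAP2 at 1.18 and HLA-C at 2.86 with the control guide. Both comparisons leave out the 42 control counts of ENSG00000250264, and the order with these added to TAP2 was not examined. Among 14612 detected protein-coding genes, HLA-E lay above 67.9% in the SMC1A library and 57.4% in the control library, and TAP1 above 14.0% in the SMC1A library and 15.4% in the control library.

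The other genes that load peptides differed from one another. The loading list had 7 genes with 100 counts, B2M and TAP2 included. Of these, 1 was at least 2-fold higher (2 by library totals, with ERAP1), against 5.11% of genes with 100 counts. At least 2-fold lower were 0, against 2.32%, and 3 were at least 1.5-fold higher, against 12.2%. TAPBP, which encodes tapasin, the bridge between TAP and the heavy chain, had 1199 counts with the SMC1A guide and 676 with the control guide (log2 ratio 0.82, interval 0.68 to 0.96). ERAP1, which encodes the aminopeptidase that trims peptides, had 616 counts with the SMC1A guide and 333 with the control guide (0.88, interval 0.69 to 1.08). The chaperone genes CALR and PDIA3 were at 0.46 and 0.36, and CANX, which encodes calnexin, was lower at -0.22 (interval -0.26 to -0.19). TAPBPL and ERAP2 had 12 and 10 counts in all, and log2 ratios of -0.01. The median of the 7 genes was 0.46, or 0.59 by library totals. The ISRE core was also found in the RefSeq windows of TAPBP, ERAP1, PSMB10 and HLA-F.

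Genes of the transcription factors of class I promoters were mostly within 2-fold. Of the 15 with 100 counts, 1 was at least 2-fold higher, against 5.11% of genes, and 0 were at least 2-fold lower, against 2.32%. The median of the 16 genes with 20 counts was 0.11, or 0.24 by library totals. IRF1, which binds interferon response elements, had 114 counts with the SMC1A guide and 54 with the control guide (2.10-fold, log2 ratio 1.06, interval 0.59 to 1.57). IRF9 and STAT2, partners in the factor that type I interferon activates, had 154 and 877 counts with the SMC1A guide and 88 and 551 counts with the control guide, which are log2 ratios of 0.79 and 0.66. IRF2 was at 0.34 (interval -0.01 to 0.69). RELB, a subunit of NF-kappa B, had 29 counts with the SMC1A guide and 13 with the control guide (1.09, interval 0.16 to 2.22), while NFKB1 was at -0.15 and RELA at -0.32.

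Genes of the factors that NLRC5 joins on class I promoters were all within 2-fold. RFX5 was at 0.24, RFXAP at 0.58 and RFXANK at -0.08. NFYA was at -0.37, NFYB at -0.05 and NFYC at -0.10, CREB1 at 0.09 and ATF1 at -0.36. The signs of RFXANK, NFYB and NFYC turned when libraries were scaled by totals (0.05, 0.08 and 0.03).

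**Figure D4:**
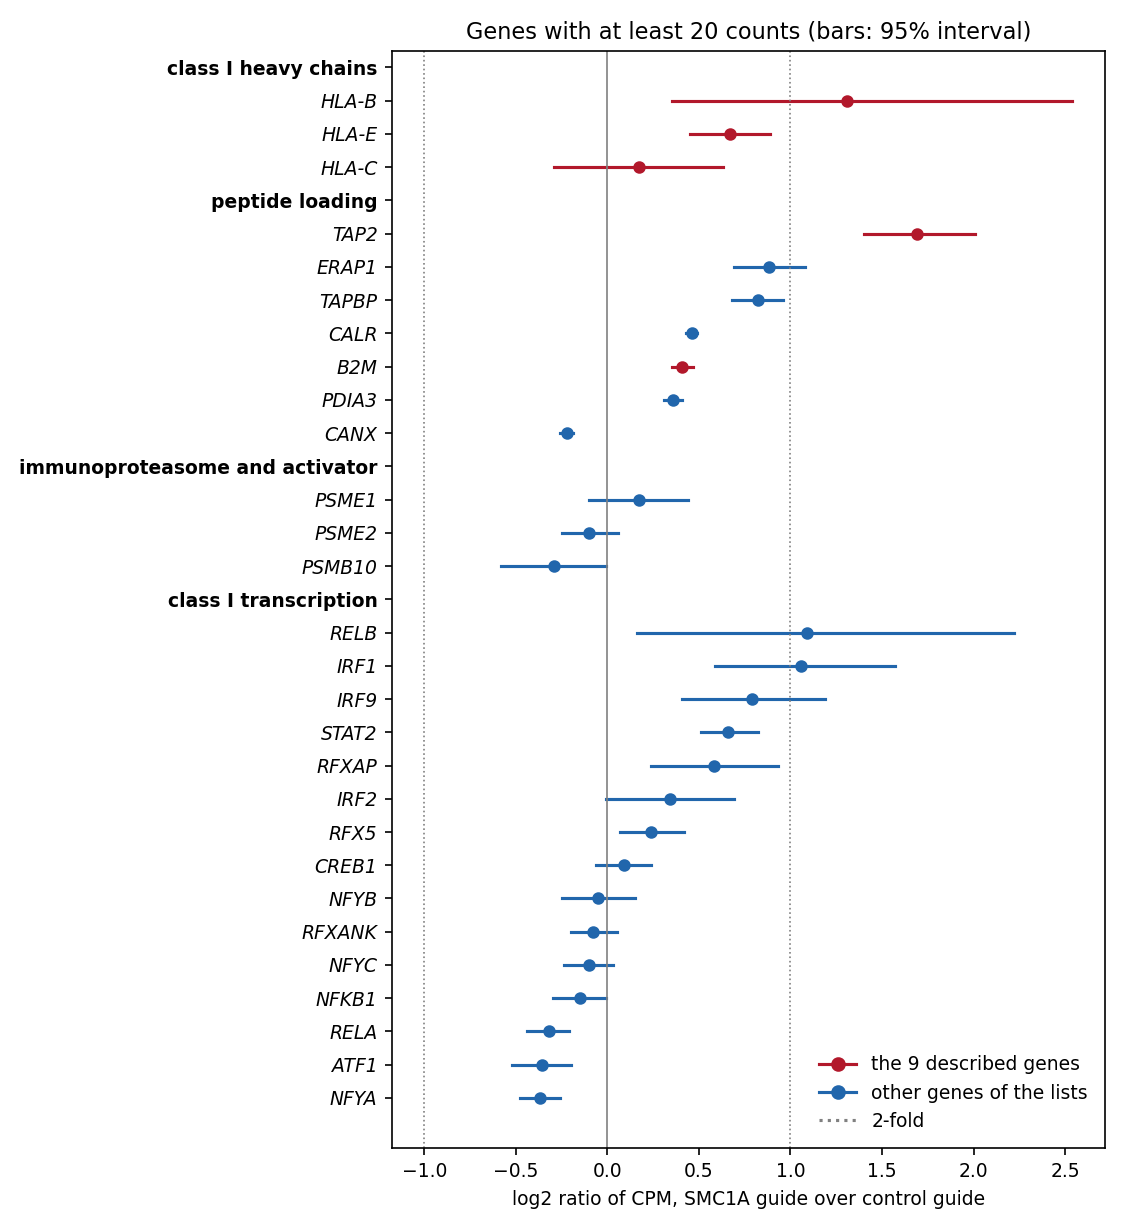
Log2 ratio of CPM (SMC1A guide over control guide) of the class I genes (red) and of other genes of the heavy chain, loading, immunoproteasome and transcription lists (blue), for named genes with at least 20 counts. Points are ratios between 1 library per guide, bars are exact 95% counting intervals and dotted lines mark 2-fold. TAP2 (1.69) stands farthest to the right. Of the red genes drawn, TAP2 alone has its whole interval past 2-fold, as 3.03% of genes with 100 counts have. PSMB8, with 11 counts in all, is not drawn, and its interval began at 1.32. Summed with ENSG00000250264, the TAP2 interval began at 0.99, just short of 2-fold.

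Interferon genes around this pathway gave no uniform picture. Of the 11 genes of interferon gamma signalling with 100 counts, 1 (IRF1) was at least 2-fold higher, against 5.11% of genes with 100 counts. At least 2-fold lower was 1 (SOCS3, -1.08), against 2.32%, a call that SOCS3 lost by library totals. The median of 12 genes was 0.07. The receptor genes IFNGR1 and IFNGR2 were at 0.11 and 0.46, and the kinase gene JAK2 at -0.78. GBP2, named after its counts were seen, had 22 counts with the SMC1A guide and 2 with the control guide (log2 ratio 2.93, interval 1.43 to 6.58). Of 9 genes of type I interferon signalling with 100 counts, 0 were past 2-fold, or 1 by library totals. Of the 11 with 20 counts, 10 had ratios above 0 and 1 was at least 2-fold higher (median 0.15). Among all genes with 20 counts, 9.55% were at least 2-fold higher. Ratios above 0 were found in 62.7% with 20 to 99 counts, 56.9% with 100 to 999 and 37.0% with at least 1000. The ubiquitin-like ISG15 had 73 counts with the SMC1A guide and 37 with the control guide (0.95, interval 0.38 to 1.58), and IFI6, named after its counts were seen, had 34 with the SMC1A guide and 8 with the control guide (1.95, interval 0.94 to 3.40). The receptor gene IFNAR1 was at -0.12, or 0.01 by library totals, and JAK1 at 0.03. GBP1, IDO1, IRF8 and CIITA, the class II counterpart of NLRC5, had 0 counts in both libraries.

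Genes beside the class I genes were compared within 250 kb of their starts. Of 35 neighbours with 100 counts, 3 were at least 2-fold higher, against 5.11% of genes with 100 counts, and 0 were lower, against 2.32%. The median of the 39 with 20 counts was 0.04. HLA-E, at 0.67, lay between RPP21 at -0.67 and PRR3 at -0.42. HLA-B lay between HLA-C (0.17) and MICA (0.23), and the first well-measured gene past PSMB9, BRD2, was at -0.01. Beside B2M, SPG11 was at 0.29 and TRIM69, 17.5 kb away, at 1.13. NLRC5 had HERPUD1 (-0.25) on one side and CPNE2 (1.53, interval 1.09 to 2.03) 103.1 kb away on the other. PPP1R18, 198.4 kb from HLA-E and named after its value was seen, was the third at least 2-fold higher, at 1.11.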

How the data were processed

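The deposited values are estimated counts for each gene and library, made whole by the authors and left unscaled. The submitters' processing notes name Salmon 1.10.1, STAR 2.7.10a and DESeq2 1.42.1, and build hg38 (GRCh38). Their roles, the annotation and the strand setting: not given in the sources used here. Estimated counts of near-identical or overlapping genes depend on how reads were divided. All 62700 Ensembl identifiers matched the name table used here. Coordinates, exon lengths and overlaps come from GENCODE release 29 (GRCh38), which may not be the authors' annotation, and promoters from RefSeq (GRCh38.p14).

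TMM factors from edgeR 4.0.16 (R 4.3.3) scaled the libraries. The log2 ratio is CPM with the SMC1A guide over CPM with the control guide, with a prior count of 1. Intervals are exact 95% intervals: Clopper-Pearson for the ratio of counts and for shares, conditional for proportions of gene pairs, Poisson for levels. They cover counting error only, because each guide had 1 library. Reads lacking molecular identifiers may be copies of 1 molecule, so the intervals may be too narrow even for counting error. A count of 0 was taken to allow 3 counts. Genes with 100 summed counts were sorted by a 2-fold rule, and list medians use genes with 20. The 9 genes, the lists and the alternatives were chosen with earlier results of these data known. The text names the 9 genes, the genes of 4 lists (heavy chains, loading, immunoproteasome, transcription), the extremes of other lists and the nearest coding neighbours. Ratios and intervals were tested on simulated counts. Alternatives were scaling by library totals, by upper quartile, by size factors from DESeq2 1.42.0 and by TMM without mitochondrial and globin genes, other prior counts, filters and folds, and removal of the trend with expression level. Scripts ran in Python 3.11.15 with pandas 2.3.3, scipy 1.17.1 and numpy 2.4.6. Some genes are not reported here, though counts over lists include them.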

Additional observations from a re-analysis of the deposited data

How the results depend on the processing

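By library totals the log2 ratios of all genes shifted by 0.13 at the median, and by the other scalings by at most 0.02. Of genes with 100 counts, 579 were 2-fold higher and 263 lower, against 766 and 195 by library totals and 518 and 312 without the trend with expression level. HLA-C turned to -0.05 without the trend with expression level, and B2M, reported at 0.41, was at 0.54 by library totals and 0.60 without the trend; the cause was not tested. The number of class I genes at least 2-fold higher, 1 of 4, was 2 of 5 with a filter of 20 counts, 5 of 9 with no filter and 2 of 4 with a 1.5-fold rule. It stayed at 1 under the other scalings, prior counts and filters run, and 0 genes were 2-fold lower under each. The ratios of HLA-B, HLA-E and TAP2 stayed within 1.02 to 1.44, 0.65 to 0.80 and 1.26 to 1.82, the lowest TAP2 value being the sum with ENSG00000250264. PSMB8, PSMB9 and NLRC5, with 4 to 11 counts in all, ranged with the prior count from 1.68 to 5.49, 0.85 to 4.08 and 1.22 to 2.88. Depth limits TAP1, NLRC5, PSMB8 and PSMB9, with at most 11 counts each. No paired analysis was possible because each guide had 1 library. The trend could not be removed for PSMB9, which has under 5 counts.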

Other observations

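Another list held genes of molecules related to class I and of ligands that natural killer cells read. Of the 8 with 100 counts, 1 was at least 2-fold higher (3 by library totals), against 5.11% of genes with 100 counts. At least 1.5-fold higher were 3, against 12.2%, and 0 were lower by either rule, against 2.32% at 2-fold and 9.06% at 1.5-fold. All 11 with 20 counts had ratios above 0 on the TMM scale (median 0.97), and 7 of the 20 genes were at 0 in both libraries. Ratios above 0 were found in 62.7% of genes with 20 to 99 counts, 56.9% with 100 to 999 and 37.0% with at least 1000. MR1, which presents vitamin metabolites to T cells, had 782 counts with the SMC1A guide and 299 with the control guide (log2 ratio 1.38, interval 1.19 to 1.58). FCGRT, the heavy chain of the neonatal Fc receptor, which also pairs with beta-2 microglobulin, had 500 counts with the SMC1A guide and 249 with the control guide (1.00, just under 2-fold, interval 0.78 to 1.22), and NECTIN2, a ligand of the receptor DNAM-1, 2011 with the SMC1A guide and 1020 with the control guide (0.97). MICA and MICB, ligands of NKG2D, were both at 0.23, and NCR3LG1 at 0.15. Chosen after their values were seen, ULBP2, another NKG2D ligand, had 70 counts with the SMC1A guide and 11 with the control guide (2.56, interval 1.74 to 3.73), and HFE, a class I-like regulator of iron uptake, 54 with the SMC1A guide and 6 with the control guide (2.97, interval 1.95 to 4.67).

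Class II genes stayed near silence. Of 13, 8 had 0 counts in both libraries, HLA-DRA and HLA-DRB1 among them, and all 13 summed to 2.55 CPM with the SMC1A guide and 1.08 CPM with the control guide. The 14 genes of chromatin complexes known to silence class I genes in tumour lines had a median of -0.18, or -0.05 by library totals. Of these, 0 were past 2-fold, while 5.11% of genes with 100 counts were at least 2-fold higher and 2.32% lower. JARID2 was at -0.74, RCOR1 at -0.65, EZH1 at 0.49, HDAC1 at 0.23 and EZH2, the main polycomb methyltransferase, at -0.15. Of 15 genes of class I folding and traffic, 0 passed 2-fold (median 0.06), from SYVN1 at -0.22 and STUB1 at -0.18 to HSPA5 at 0.40 and TMED10 at 0.71.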
